A study of Mus musculus with 11 samples.

Results

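The genes described here are 10 genes of mouse chromosome 9 that lie around Ireb2, the gene of iron regulatory protein 2 (Irp2), and whose testis mRNA differed between mice lacking Irp2 and wild-type (WT) mice. They are Ncam1, 1810046K07Rik, 4933407I05Rik, Dnaja4, 4930563M21Rik, Gm7444, Pstpip1, Tspan3, Snupn and 1700017B05Rik, 10 of the 24411 genes of the count table. The members were selected on their counts in Irp2-/- and WT testes, so their values in that comparison, and in the comparison of Irp2-/- with Irp1-/- testes, which uses the same Irp2-/- samples, are a description without a test. The comparison of Irp1-/- with WT testes was not used in the choice, and the members were tested in it. It shares its 4 WT samples with the comparison that chose them.

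Polyadenylated RNA of whole decapsulated testes was sequenced from 20-week-old mice of 3 genotypes. The 4 WT mice were C57Bl/6J, the 4 Irp1-/- mice carried a global knockout of Aco1, the gene of Irp1, and the 3 Irp2-/- mice carried a global knockout of Ireb2. The authors describe the Irp1-/- line as bred on a C57Bl/6J background, and their WT controls as littermates from crosses of Irp1+/- mice. No mouse was treated. How the Irp2 allele was made, the strain background of the Irp2-/- mice and their relation to the WT mice were not given in the sources used here. Total counts lay between 15902473 and 22451417 per sample. No replicate pair within a genotype, of 15, agreed within sampling noise. Levels are given as CPM, the count of a gene per 1000000 counts of its sample after TMM scaling. Marker sums of spermatogonia, spermatocytes, round spermatids, peritubular myoid cells and endothelium overlapped between Irp2-/- and WT testes, as did those of elongating spermatids (15694.2 to 18964.7 CPM in Irp2-/- and 18634.7 to 19476.8 CPM in WT), Sertoli and Leydig cells and blood, and no germ cell marker was at 0. Lymphocyte sums did not overlap between these 2 genotypes (6.03 to 7.29 CPM in Irp2-/- and 4.71 to 5.85 CPM in WT). Of all single genes tested between them, 9.31% did not overlap. Between Irp1-/- and WT testes, spermatocyte sums did not overlap (1194.5 to 1214.7 and 1237.2 to 1267.9 CPM). Sertoli cell sums did not either (1079.5 to 1211.8 and 963.9 to 1038.9 CPM), where 6.59% of all single genes tested did not overlap. In bulk RNA, fewer cells of a type and less RNA per cell cannot be told apart.

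Irp1 and Irp2 are RNA-binding proteins that bind iron-responsive elements in mRNAs such as those of ferritin and transferrin receptor 1, and so adjust iron storage and uptake to the iron in a cell. The members have no shared pathway. They include a neural cell adhesion molecule (Ncam1), a co-chaperone of Hsp70 (Dnaja4), a cytoskeletal adaptor of white blood cells (Pstpip1), a tetraspanin (Tspan3) and an import factor of spliceosomal particles (Snupn), beside a long non-coding RNA (4933407I05Rik), a processed pseudogene (Gm7444) and 3 protein-coding genes known by clone names. Positions are those of GRCm38 (mm10) in GENCODE M21, and distances run between gene start sites.

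The targeted genes were checked first. Ireb2, on chromosome 9 from 54863789 to 54912530 on the plus strand, had 143.5, 144.2, 131.3 and 139.4 CPM in the 4 WT samples, 136.0, 145.0, 143.0 and 125.1 CPM in the 4 Irp1-/- samples, and 61.7, 61.6 and 63.1 CPM in the 3 Irp2-/- samples. Irp2-/- testes thus kept 44.5% of the WT mean, without overlap with either other genotype (log2 fold change -1.16, SE 0.050, adjusted p = 2.84e-13, edgeR). Aco1, on chromosome 4, had 8.60 ± 0.636 CPM (SD, n = 4) in Irp1-/-, 11.8 ± 1.37 CPM (SD, n = 4) in WT and 11.8 ± 1.68 CPM (SD, n = 3) in Irp2-/- testes. Its log2 fold change between Irp1-/- and WT was -0.45 (SE 0.098, adjusted p = 0.0158, edgeR), and the call was lost without Irp1-/- replicate 6 (adjusted p = 0.0683) or WT replicate 2 (0.0711), 3 (0.052) or 4 (0.075).

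The 10 members spanned 7.76 Mb, from 49502136 to 57262612, and 4 of them lay at lower and 6 at higher coordinates than Ireb2. Among the members at lower coordinates, Ncam1 (5.065 Mb away) and Dnaja4 (0.165 Mb away) were lower in Irp2-/- than in WT testes, and 1810046K07Rik (3.535 Mb away) and 4933407I05Rik (2.949 Mb away) were higher. At higher coordinates, 4930563M21Rik, Gm7444, Tspan3 and Snupn were lower and Pstpip1 and 1700017B05Rik higher. Members next to each other moved in both directions: Gm7444 and Pstpip1 start 62.2 kb apart, and Pstpip1 and Tspan3 start 75.5 kb apart, with 1 and 0 tested genes between them.

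**Figure D1:**
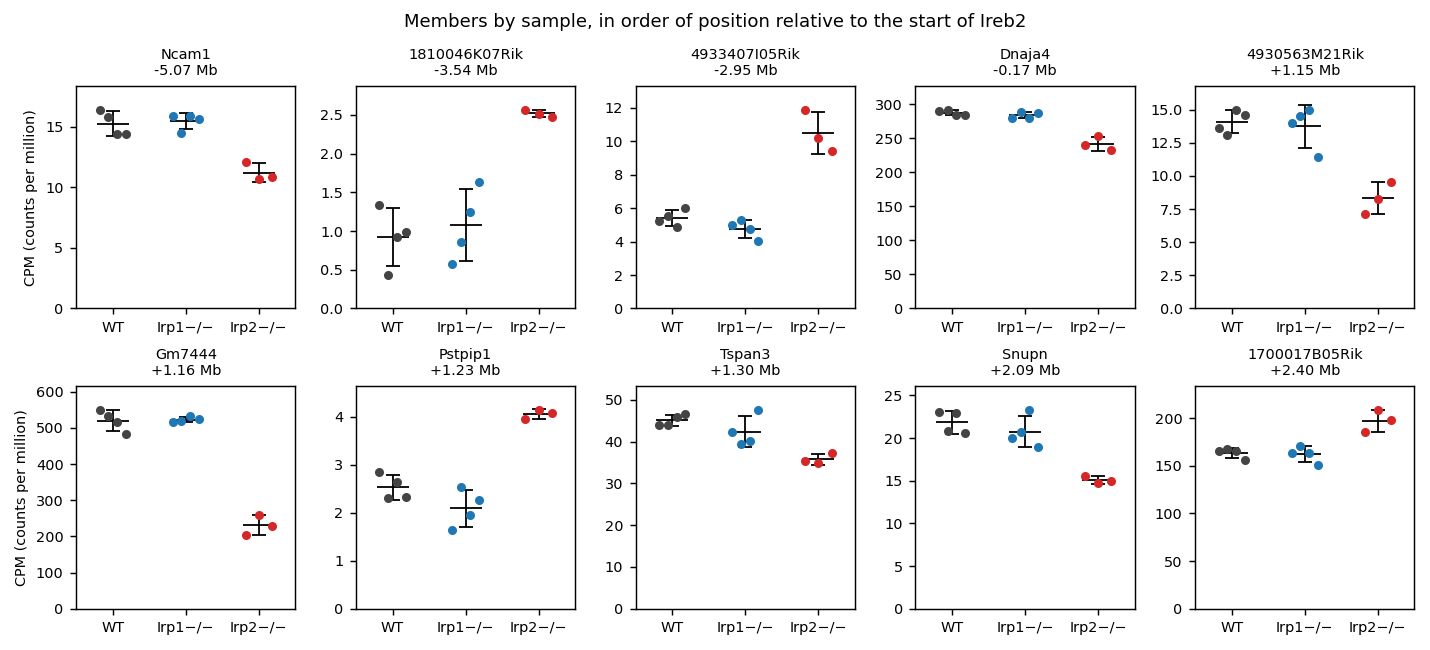
CPM of the 10 members (y axis, from 0) in each WT, Irp1-/- and Irp2-/- sample, with black bars for the mean ± SD, in order of position; the number under each name is the distance of its start site from that of Ireb2. In every panel the 3 Irp2-/- samples sit apart from the WT and the Irp1-/- samples, while WT and Irp1-/- samples overlap.

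The member with the highest level per kilobase of exon was Gm7444, a pseudogene on chromosome 9 from 56027742 to 56030169 on the plus strand, 1.164 Mb from Ireb2, with 214.1 CPM per kb in WT testes. It is a processed copy of Rnf19a, a gene on chromosome 15 that encodes a RING-type ubiquitin ligase. It matched the Rnf19a transcript over 2455 bases with 89.572% identity, and it matched a pair of further copies on chromosome 9, 1700001J11Rik with 96.211% and Gm7435 with 95.835% identity. Gm7435 was not analysed here, as it has no row of counts.

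Over the whole length of Gm7444, 28.1% of its 50-base windows, the length of a read, occurred unchanged in another transcript, 18.3% in Gm7435, 16.4% in 1700001J11Rik and 1.43% in Rnf19a. How the authors' counting divided such reads was not given in the sources used here, so the level of Gm7444 is uncertain. These shares count single windows, while reads came in pairs, and do not say by how much.

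Gm7444 had 549.7, 531.8, 515.3 and 483.8 CPM in WT, 515.5, 520.1, 531.5 and 524.1 CPM in Irp1-/- and 202.8, 258.2 and 229.9 CPM in Irp2-/- testes. The Irp2-/- mean was 44.3% of the WT mean, and the highest Irp2-/- sample lay below the lowest of the other genotypes. Its log2 fold change was -1.17 (SE 0.067) against WT and -1.18 (SE 0.061) against Irp1-/-. The related genes, which were looked at after the values of Gm7444 were known, stood at other levels. 1700001J11Rik had 506.6, 480.3, 456.8 and 450.9 CPM in WT and 452.8, 500.5 and 498.5 CPM in Irp2-/- testes. Rnf19a had 635.1, 632.0, 585.8 and 576.3 CPM in WT and 546.8, 612.3 and 587.8 CPM in Irp2-/- testes. Both overlapped between the genotypes. Gm7444 made up 32.0% to 33.1% of the summed CPM of these 3 genes in WT samples, 32.2% to 32.9% in Irp1-/- samples and 16.9% to 18.8% in Irp2-/- samples, and the sum of the other 2 was 1081.0 ± 54.9 CPM (SD, n = 4) in WT and 1066.3 ± 59.2 CPM (SD, n = 3) in Irp2-/- testes.

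**Figure D2:**
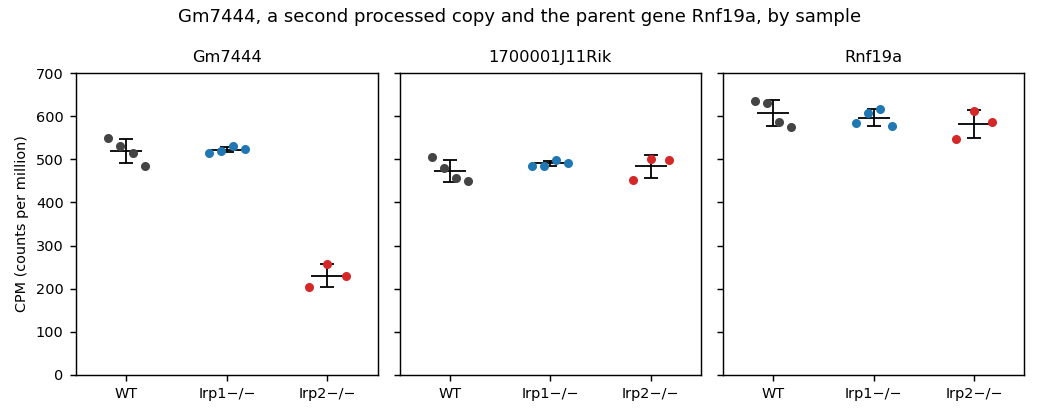
CPM (y axis, from 0, shared) of Gm7444, of 1700001J11Rik and of Rnf19a in each WT, Irp1-/- and Irp2-/- sample, with black bars for the mean ± SD. The 3 Irp2-/- samples lie between 202.8 and 258.2 CPM for Gm7444, below all other samples, and among the other samples for the 2 related genes.

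The neighbour of Gm7444 at 17.2 kb between start sites, 4930563M21Rik, is a protein-coding gene on the minus strand from 55962589 to 56010550. It had 13.6, 13.1, 15 and 14.6 CPM in WT, 14.0, 14.5, 15 and 11.4 CPM in Irp1-/- and 7.14, 8.23 and 9.57 CPM in Irp2-/- testes. No Irp2-/- sample reached the lowest sample of another genotype, and the mean was 59.1% of WT. The log2 fold change was -0.76 (SE 0.106) against WT and -0.73 (SE 0.112) against Irp1-/-.

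The members that were higher in Irp2-/- testes by the largest factors had low levels. 1810046K07Rik, a protein-coding gene on the minus strand from 51289686 to 51328917, had 1.34, 0.436, 0.920 and 0.994 CPM in WT, 0.578, 0.857, 1.25 and 1.63 CPM in Irp1-/- and 2.57, 2.51 and 2.48 CPM in Irp2-/- testes. WT samples held 7 to 24 reads of it and Irp2-/- samples 47 to 58, so the WT values spread widely while the Irp2-/- values lay close together above all others. The log2 fold change was 1.43 (SE 0.257) against WT and 1.25 (SE 0.251) against Irp1-/-. 4933407I05Rik, a long intergenic non-coding RNA on the plus strand from 51914427 to 51927003, had 5.26, 5.54, 4.89 and 6.02 CPM in WT, 4.99, 5.28, 4.75 and 4.02 CPM in Irp1-/- and 11.9, 10.2 and 9.41 CPM in Irp2-/- testes. Its Irp2-/- mean was 193.6% of the WT mean without overlap, with a log2 fold change of 0.96 (SE 0.117) against WT and 1.14 (SE 0.119) against Irp1-/-. An unrelated non-coding gene, Gm6980, lies on the other strand and shares 38 exon bases with it, and has no row in the table.

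Pstpip1 encodes an adaptor that links PEST-type phosphatases to the actin cytoskeleton, and is known mainly from white blood cells. It lies on the plus strand from 56089962 to 56128888 and had 2.85, 2.31, 2.64 and 2.32 CPM in WT, 1.63, 2.53, 1.95 and 2.26 CPM in Irp1-/- and 3.94, 4.14 and 4.07 CPM in Irp2-/- testes. The Irp2-/- samples lay above all others, at 160.2% of the WT mean (log2 fold change 0.68, SE 0.159). Against Irp1-/- the log2 fold change was 0.95 (SE 0.168). The summed CPM of 6 lymphocyte markers was 4.71 to 5.85 in WT, 4.56 to 5.88 in Irp1-/- and 6.03 to 7.29 in Irp2-/- testes, and that of 7 macrophage markers was 59.2 to 72.2, 66.7 to 69.7 and 67.4 to 72.9, with no marker of either list at 0 in all samples. The lymphocyte sums, like Pstpip1, were highest in the 3 Irp2-/- samples. Pstpip1 was chosen on these samples, and the part of lymphocytes in its values was not tested. The lymphocyte markers went both ways. Among the 4 highest of them, Lck averaged 2.34 CPM in Irp2-/- and 1.56 CPM in WT testes. Ptprc averaged 1.94 ± 0.955 CPM (SD, n = 3) and 1.42 ± 0.477 CPM (SD, n = 4), and Cd3e 0.854 and 0.658 CPM. Cd2 was lower in Irp2-/- testes, at 0.551 CPM beside 0.948 CPM in WT. Of the 5 lymphocyte and 7 macrophage markers tested between Irp2-/- and WT, 0 passed in edgeR or DESeq2, and 2 of each list had an unadjusted p under 0.05 in edgeR. Of 11 tested genes of the PEST phosphatase and actin adaptor group to which Pstpip1 belongs, 0 passed in edgeR (1 at an unadjusted p under 0.05, and 0 of 12 in DESeq2), with a median log2 fold change of 0.03. Abl1, a tyrosine kinase of this group, had 178.9 CPM in Irp2-/- and 179.9 CPM in WT testes on average.

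Among the members with moderate differences, 1700017B05Rik was the one that was higher. This protein-coding gene, on the minus strand from 57253117 to 57262612, had 165.2, 167.1, 165.1 and 155.6 CPM in WT, 163.2, 170.8, 163.8 and 150.7 CPM in Irp1-/- and 185.7, 208.6 and 197.5 CPM in Irp2-/- testes. The lowest Irp2-/- sample exceeded the highest sample of the other genotypes, and the log2 fold change was 0.28 (SE 0.048) against WT and 0.29 (SE 0.052) against Irp1-/-.

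Snupn encodes snurportin 1, which carries spliceosomal ribonucleoproteins with a trimethylated cap into the nucleus. On the plus strand from 56950878 to 56983206, it had 23, 20.8, 22.9 and 20.6 CPM in WT, 20.0, 20.7, 23.3 and 19.0 CPM in Irp1-/- and 15.6, 14.7 and 15 CPM in Irp2-/- testes. The Irp2-/- samples were the lowest, at 69.1% of the WT mean (log2 fold change -0.53, SE 0.077), and the log2 fold change against Irp1-/- was -0.46 (SE 0.081). In edgeR 0 of the 25 other genes of snurportin transport and spliceosomal particle assembly passed the threshold between Irp2-/- and WT, with a median log2 fold change of -0.005 beside 0.0033 over all tested genes. At an unadjusted p under 0.05 there was 1 in edgeR, and DESeq2 called 0 of 25. For Ran, the GTPase of nuclear transport, it was -0.06 (edgeR adjusted p = 0.791), and that of Kpnb1, importin beta, was 0.01 (edgeR adjusted p = 0.979).

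Ncam1, a cell adhesion molecule of the immunoglobulin superfamily, lies farthest from Ireb2, on the minus strand from 49502136 to 49798925. It had 16.4, 15.8, 14.4 and 14.4 CPM in WT, 15.9, 14.5, 15.9 and 15.6 CPM in Irp1-/- and 12.1, 10.7 and 10.8 CPM in Irp2-/- testes, where all samples were below those of the other genotypes. The log2 fold change was -0.44 (SE 0.091) against WT and -0.46 (SE 0.086) against Irp1-/-. The antisense gene Gm11149 overlaps Ncam1 by 417 exon bases, and it had 11.5 ± 1.14 CPM (SD, n = 4) in WT and 11.2 ± 1.15 CPM (SD, n = 3) in Irp2-/- testes. Of the 17 other adhesion genes listed, 12 were tested between Irp2-/- and WT and 0 passed the edgeR threshold (2 at an unadjusted p under 0.05, and 0 of 16 in DESeq2), with a median log2 fold change of 0.03.

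Tspan3, a 4-pass membrane protein of the tetraspanin family, lies on the minus strand from 56131725 to 56165477. Its level was 44.0, 44.0, 45.8 and 46.5 CPM in WT, 42.2, 39.5, 40.2 and 47.6 CPM in Irp1-/- and 35.3, 34.8 and 37.2 CPM in Irp2-/- testes. The Irp2-/- samples were below all others, at 79.4% of the WT mean (log2 fold change -0.33, SE 0.057), and the log2 fold change against Irp1-/- was -0.24 (SE 0.066). Of 24 other tetraspanins tested between Irp2-/- and WT, 1 passed the edgeR threshold, where 1.21% of all tested genes did. At an unadjusted p under 0.05 there were 4 in edgeR, and DESeq2 called 1 of 24. Their log2 fold changes ran from -0.44 to 0.83 with a median of 0.01. The one that passed was Tspan6, on chromosome X. It fell from 129.6 ± 1.05 CPM (SD, n = 4) in WT to 95.5 ± 4.63 CPM (SD, n = 3) in Irp2-/- testes (log2 fold change -0.44, SE 0.048, adjusted p = 5.02e-06, edgeR). In Irp1-/- testes Tspan6 stood at 149.2 ± 12.3 CPM (SD, n = 4), 0.20 above WT on the log2 scale (edgeR adjusted p = 0.0341, and between 0.013 and 0.111 with 1 sample left out).

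Dnaja4, a J-domain co-chaperone of Hsp70, is the member nearest to Ireb2, on the plus strand from 54698873 to 54716315. It had 289.2, 292.0, 283.9 and 284.5 CPM in WT, 279.1, 289.1, 280.3 and 286.9 CPM in Irp1-/- and 239.7, 252.5 and 232.9 CPM in Irp2-/- testes. The difference was the smallest in log2 scale among the members, but the samples within each genotype were close and the Irp2-/- samples lay below all WT and Irp1-/- samples, which overlapped (log2 fold change -0.25, SE 0.044, against WT and -0.23, SE 0.046, against Irp1-/-). Dnaja4 and Wdr61, a gene on the other strand, share 1581 exon bases, and 42.7% of the 50-base windows of Dnaja4 occur in Wdr61 in the opposite orientation. The libraries were stranded, and the strand setting of the counting was not given in the sources used here. Wdr61 had 20.5 ± 0.142 CPM (SD, n = 4) in WT and 19.3 ± 1.79 CPM (SD, n = 3) in Irp2-/- testes. Of 24 other chaperone genes 0 passed the edgeR test between Irp2-/- and WT (2 at an unadjusted p under 0.05, and 0 of 24 in DESeq2), with a median log2 fold change of -0.02. The testis-enriched chaperone Hspa2 had one of -0.03 (adjusted p = 0.918) and Hspa1l one of -0.04 (adjusted p = 0.890).

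In the comparison that chose them, 10 of the 10 members passed an adjusted p of 0.05 in edgeR, against 1.21% of the 16154 tested genes. Pstpip1 lost its call in DESeq2 (adjusted p = 0.135) and in 6 of the 7 edgeR fits with 1 sample left out, and Ncam1 in 2 of the 7 (adjusted p = 0.0582 and 0.0889). The 4 higher members stand beside 0.371% of all tested genes that were higher, and the 6 lower members beside 0.842% that were lower. The genotypes did not overlap in CPM for 10 of 10 members and for 9.31% of all tested genes. Against Irp1-/-, 10 of 10 members passed, again 4 higher and 6 lower, where 4.69% of 16281 tested genes passed, 1.76% higher and 2.92% lower, and 10 of 10 did not overlap where 15.1% of all genes did not. These counts are set by the choice of members. The member closest to the threshold was Pstpip1 (adjusted p = 0.0283), and the gene of the span just outside it was 1700041C23Rik (adjusted p = 0.0774, log2 fold change -0.36).

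In the comparison of Irp1-/- with WT testes, which was not used in the choice, 0 of the 10 members passed the adjusted p of 0.05 in edgeR, where 1.02% of 16002 tested genes did. None had an unadjusted p under 0.05, DESeq2 called 0 of the 8 members to which it gave an adjusted p, and the genotypes did not overlap for 0 of 10 members and for 6.59% of all tested genes. The smallest p was that of Tspan3 (log2 fold change -0.10, SE 0.056, adjusted p = 0.511, edgeR), with a 95% confidence interval of the log2 fold change from -0.21 to 0.02. For Gm7444 the log2 fold change was 0.00 with an interval from -0.08 to 0.08, and for Dnaja4 it was -0.02 with an interval from -0.10 to 0.05. The intervals of 1700017B05Rik (-0.10 to 0.07), Ncam1 (-0.14 to 0.17), Snupn (-0.22 to 0.07) and 4930563M21Rik (-0.21 to 0.15) lay within 0.3 of 0. Those of the members with few reads were wider, from -0.44 to 0.07 for 4933407I05Rik, from -0.65 to 0.10 for Pstpip1 and from -0.48 to 0.84 for 1810046K07Rik, so differences within these bounds could not be told from none for these 3 genes. The median absolute log2 fold change of the members was 0.05 beside 0.07 over all tested genes.

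**Figure D3:**
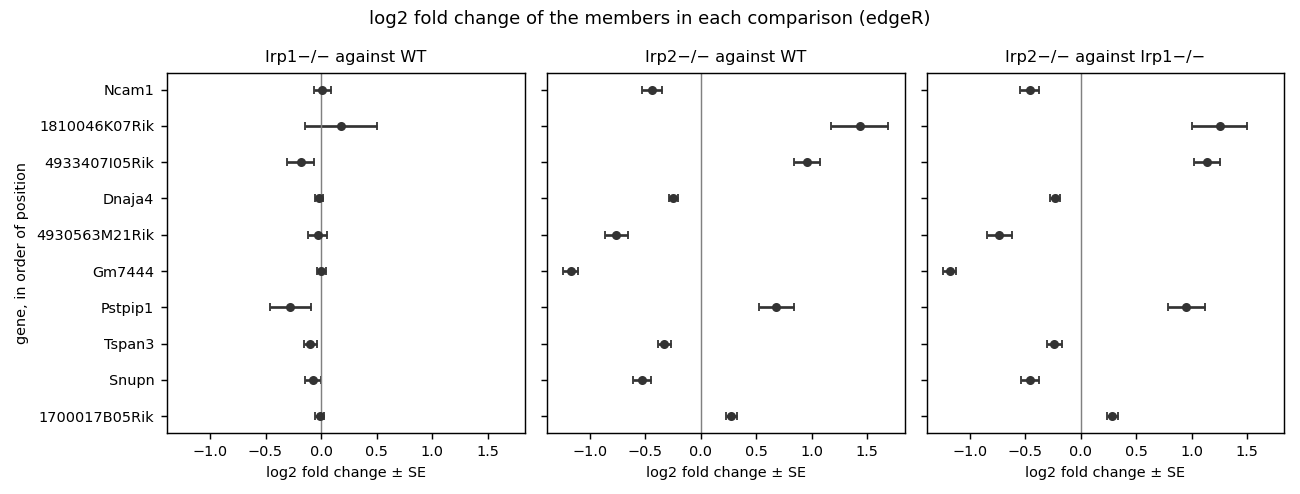
log2 fold change (x axis) of each member (y axis, in order of position) in Irp1-/- against WT, Irp2-/- against WT and Irp2-/- against Irp1-/-, where points are edgeR estimates, bars are ± SE and the vertical line is no difference. Against WT the members lie between -0.28 and 0.18 in Irp1-/- testes and between -1.17 and 1.43 in Irp2-/- testes.

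In the Irp2-/- and WT values that chose them, the members were not ordered by distance from Ireb2 in size or direction, a description without a test. Gm7444, with the largest fall among the members, started 1.164 Mb from Ireb2, and 1810046K07Rik, with the largest rise, 3.535 Mb from it, while Dnaja4, the nearest member, had the smallest difference. Between the members lay genes with no call between Irp2-/- and WT. Of the 10 tested genes nearest to Ireb2, 5 on each side, 9 are not members, and 0 of these passed the edgeR threshold between Irp2-/- and WT (3 at an unadjusted p under 0.05, and 0 of 9 in DESeq2), with log2 fold changes from -0.29 (Hykk, a hydroxylysine kinase, adjusted p = 0.856) to 0.31 (Chrnb4, a nicotinic receptor subunit, adjusted p = 0.882). A list of 15 genes had been drawn up as neighbours of Ireb2, but only 10 of them lie within 0.3 Mb of it in the mouse, and the other 5 start 35.0 to 35.4 Mb away. Of these 10 genes 9 were tested and 0 passed in edgeR (2 at an unadjusted p under 0.05, and 0 of 9 in DESeq2), with a median log2 fold change of -0.03, and the 5 distant ones gave 0 of 5 in edgeR (1 at an unadjusted p under 0.05) and in DESeq2. Psma4, a proteasome subunit 87.0 kb away, had 58.4 CPM in Irp2-/- and 63.5 CPM in WT testes on average (adjusted p = 0.469). In the 1146.8 kb between the starts of Ireb2 and 4930563M21Rik none of 9 tested genes passed, and in the 1530.0 kb between Ncam1 and 1810046K07Rik none of 21. Against Irp1-/-, 1 of the 9 nearest genes that are not members passed in edgeR, where 4.69% of all tested genes did. This was Acsbg1, with averages of 112.8 CPM in Irp2-/-, 137.8 CPM in Irp1-/- and 119.5 CPM in WT testes. Its log2 fold change against Irp1-/- was -0.29 (SE 0.060, edgeR adjusted p = 0.00584).

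The share of tested genes called between Irp2-/- and WT was 2 of 10 within 1 Mb at lower coordinates and 0 of 8 within 1 Mb at higher coordinates. It was 4 of 9 between 1 and 2 Mb at higher coordinates, where all 4 are members, and 0 of 9 at that distance on the other side. Between 2 and 5 Mb, 2 of 30 genes were called at lower and 3 of 53 at higher coordinates, and between 5 and 10 Mb 2 of 40 and 0 of 35. Beyond 10 Mb the counts were 1 of 236 and 0 of 465. Within 10 Mb, Ireb2 itself left out, 13 of 194 genes were thus called. Within the span of the members 81 genes were tested and 12 called, the members, Ireb2 and Cyp19a1. The counts by distance and within the span include the members, which were chosen on this comparison. They are a description without a test, beside 1.21% called of all tested genes. In Irp1-/- against WT 0 of 79 genes of the span were called by edgeR (7 at an unadjusted p under 0.05) and 1 of 61 by DESeq2. In that comparison edgeR called 1.02% of all tested genes, so 0 of 79 does not set the span apart. Cyp19a1, the aromatase that makes oestrogens, starts 0.596 Mb from Ireb2 at lower coordinates and had 3.97, 5.42, 5.69 and 5.02 CPM in WT and 3.06, 2.71 and 3.54 CPM in Irp2-/- testes, which do not overlap (log2 fold change -0.69, edgeR adjusted p = 0.0258). Its call was lost in DESeq2 (adjusted p = 0.0581) and without Irp2-/- replicate 1 or 2 or WT replicate 2, 3 or 4 (edgeR adjusted p between 0.0628 and 0.169). The summed CPM of Leydig cell markers, a cell type known to express aromatase, was 706.9 to 923.1 in Irp2-/- and 685.1 to 966.2 in WT testes. The log2 fold change between Irp2-/- and WT was -0.17 for Insl3, 0.38 for Cyp17a1, 0.47 for Cyp11a1 and 0.07 for Star, the 4 highest of these markers. None of them passed in edgeR, and the part of this cell type in the values of Cyp19a1 was not tested.

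**Figure D4:**
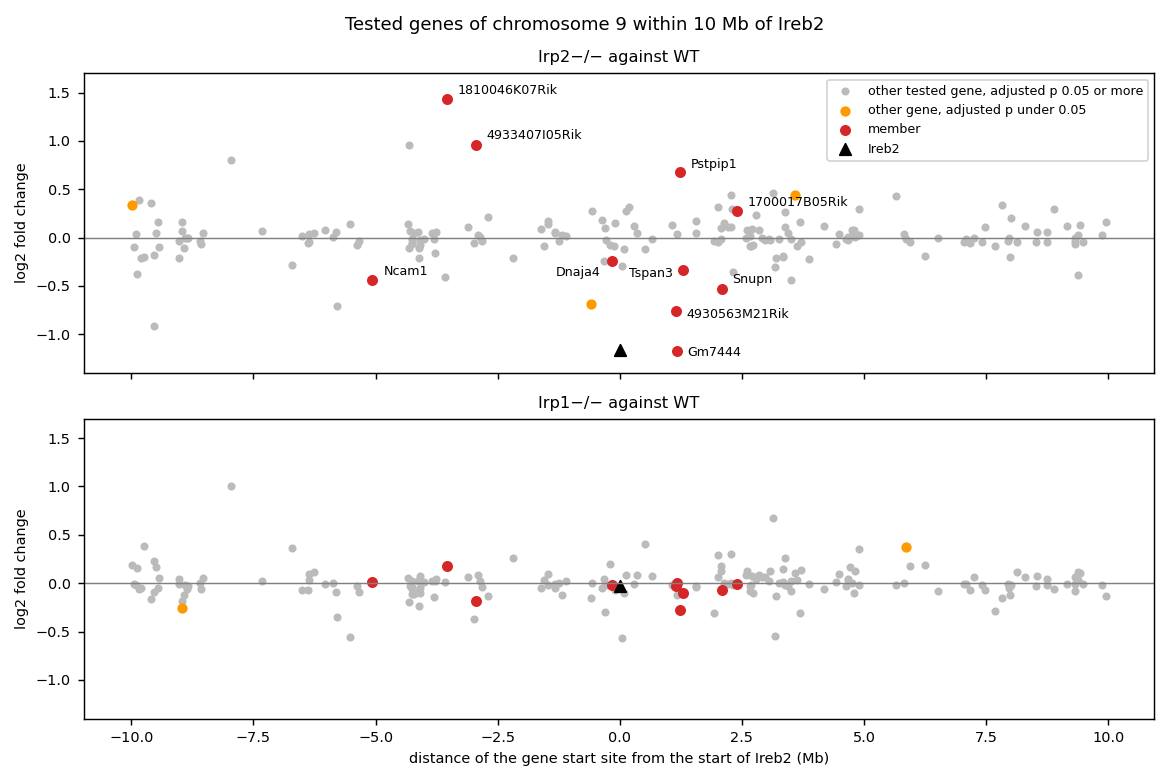
log2 fold change (y axis) of the tested chromosome 9 genes within 10 Mb of Ireb2, by distance of their start sites from it (x axis, Mb), for Irp2-/- against WT (upper panel) and Irp1-/- against WT (lower panel), where red points are members, orange points other genes with an adjusted p under 0.05, grey points other tested genes and the triangle is Ireb2. In the upper panel members lie on both sides of 0 and of Ireb2, among uncalled genes, and in the lower panel the members lie between -0.28 and 0.18.

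Promoter sequence was available for 8 of the 10 members in the set of RefSeq promoters (GRCm38.p6) used here, which held no entry for Ncam1 and Gm7444. The RefSeq start site lay within 500 bases of the GENCODE start site used for the distances in 6 of these 8. That of 4930563M21Rik lay 29.6 kb and that of Tspan3 4.41 kb inside the gene, so these 2 sequences belong to other start sites. Over the 250 bases before the RefSeq start site, the ratio of observed to expected CpG was 0.228 for 1810046K07Rik, 0.238 for 4933407I05Rik and 0.310 for Pstpip1, beside a median of 0.374 over 32841 promoters. It was 0.752 for Dnaja4, 0.944 for Snupn and 0.762 for 1700017B05Rik, and at the other start sites 0.0958 for 4930563M21Rik and 0.830 for Tspan3. Among the 6 members whose start sites match, the 3 with the lower ratios were those with the larger differences between Irp2-/- and WT. This division was seen after the values were known and is given as a description. Those 3 also had the lowest WT levels of the 6. 1810046K07Rik, 4933407I05Rik and Pstpip1 averaged 0.923, 5.43 and 2.53 CPM, and Dnaja4, Snupn and 1700017B05Rik 287.4, 21.8 and 163.2 CPM. Genes with few reads pass an adjusted p of 0.05 only at larger differences, so the ratio and the level cannot be told apart here. The promoters of 1810046K07Rik and 4933407I05Rik, the members with the largest rise, and of 1700017B05Rik and Snupn, with higher ratios and smaller differences in either direction, are printed below, with capitals for the motifs searched on both strands, the CCAAT box (CCAAT, in 33.9% of all promoters), the GC box (GGGCGG, in 32.7%), the TATA box (TATAAA, in 12.4%), the cAMP response element (TGACGTCA, in 1.55%) and the E-box (CACGTG, in 6.02%).
1810046K07Rik (chr9:51328919-51329168, minus strand): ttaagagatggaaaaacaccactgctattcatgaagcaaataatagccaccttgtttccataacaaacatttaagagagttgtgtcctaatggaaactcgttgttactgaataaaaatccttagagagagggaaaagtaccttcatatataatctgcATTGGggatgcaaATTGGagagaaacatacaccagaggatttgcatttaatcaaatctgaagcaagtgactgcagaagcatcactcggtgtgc
4933407I05Rik (chr9:51914179-51914428, plus strand): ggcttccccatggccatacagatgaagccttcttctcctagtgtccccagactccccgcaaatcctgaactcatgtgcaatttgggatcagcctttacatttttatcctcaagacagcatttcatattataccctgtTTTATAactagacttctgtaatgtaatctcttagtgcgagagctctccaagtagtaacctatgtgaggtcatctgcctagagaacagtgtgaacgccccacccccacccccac
1700017B05Rik (chr9:57262600-57262849, minus strand): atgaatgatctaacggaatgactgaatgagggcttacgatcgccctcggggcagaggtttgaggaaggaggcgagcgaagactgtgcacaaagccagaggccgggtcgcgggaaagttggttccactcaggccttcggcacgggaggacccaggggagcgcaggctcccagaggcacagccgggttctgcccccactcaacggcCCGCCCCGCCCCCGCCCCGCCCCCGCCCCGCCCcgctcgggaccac
Snupn (chr9:56950658-56950907, plus strand): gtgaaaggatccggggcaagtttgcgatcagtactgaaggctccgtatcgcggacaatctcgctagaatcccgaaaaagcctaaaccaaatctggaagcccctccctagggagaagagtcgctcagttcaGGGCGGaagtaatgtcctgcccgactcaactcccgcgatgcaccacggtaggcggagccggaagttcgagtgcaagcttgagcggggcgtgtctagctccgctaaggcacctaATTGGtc

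The promoter of 1810046K07Rik held 2 CCAAT boxes and no GC box, that of 4933407I05Rik 1 TATA box, that of 1700017B05Rik 6 GC boxes and that of Snupn 1 GC box and 1 CCAAT box. A match is a description of the letters, and none of the 5 motifs was shared by all 8 promoters.

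For the 3 members with the largest absolute log2 fold change in Irp2-/- testes, the genes with the most similar values over the 11 samples were sought by the root mean square difference of log2 CPM, centred on the WT mean. Since the Irp2-/- samples enter this measure, it is a description. The gene most like Gm7444 was Ireb2 (difference 0.101), then Atg4c on chromosome 4 (0.115), with 14.2 CPM in Irp2-/- and 29.1 CPM in WT testes on average, and Mpped1 on chromosome 15 (0.152), with 2.04 and 4.59 CPM. The genes most like 4933407I05Rik were 1700047I17Rik2 (0.166) and Fam177a (0.169) on chromosome 12, with 187.8 and 186.5 CPM in Irp2-/- against 103.0 and 103.2 CPM in WT testes, and Igf2 on chromosome 7 (0.188), with 19.3 and 11.8 CPM. For 1810046K07Rik they were Il18 (0.503), Tmem30b (0.509) and Srp54b (0.513), all less alike than the genes named for the other 2 members. Il18, which lies on chromosome 9 within the span of the members, 4.309 Mb from Ireb2, averaged 0.460 ± 0.0264 CPM in the 4 WT and 0.901 ± 0.121 CPM in the 3 Irp2-/- samples (SD) and did not pass the test (log2 fold change 0.96, SE 0.326, edgeR adjusted p = 0.219).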

How the data were processed

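Counts from testes of 4 WT, 4 Irp1-/- and 3 Irp2-/- mice were analysed, with genotypes taken from the labels. The authors deposited a table of read counts for each gene that had not been normalized. Stranded libraries had been read from both ends over 50 bases and processed against mm10 with the nf-core RNA-seq pipeline, run with its standard settings. The counting tool within it and the strand setting were not named in the sources used here. All sample columns were used. Each comparison was fitted over the whole table with edgeR 4.0.16 under R 4.3.3 (TMM normalization, edgeR's filter on low counts, robust quasi-likelihood test, Benjamini-Hochberg adjustment over all genes tested), using the samples of the 2 genotypes compared. Nothing says whether replicates were processed apart, so p-values set each difference against the spread between these samples only. The fits were tested on simulated data in which every gene had the same spread beyond sampling noise. This does not show how they behave on the real counts. DESeq2 1.42.0, RLE normalization, other count filters, a fit of all 11 samples, a replicate block and leaving out each replicate were alternatives.

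Positions came from GENCODE M21 (23334 genes) or RefSeq (982), and 95 genes had none. Copies were aligned with blastn 2.17.0. Named genes were the members, Ireb2 and Aco1, the 5 tested genes nearest to Ireb2 on each side, called genes inside the span, genes overlapping a member, list genes that were called or among the 4 highest of a list, and the 3 genes most like each of 3 members. Rnf19a, 1700001J11Rik and Gm7435 were chosen after values were seen. The members and the gene and marker lists were chosen with earlier results of these data known.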

Additional observations from a re-analysis of the deposited data

Results flagged for a closer look

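In the WT samples, replicate 4 stood apart for 1700017B05Rik, with 155.6 CPM beside 165.1 to 167.1 CPM in the other 3, a gap of 0.831 of the group's range. It was the 1 group that stood out of 34 examined over the named genes, in groups of 4 samples, where chance gives about 1 in 20. The Irp2-/- samples of this gene, at 185.7 to 208.6 CPM, lay above all WT samples with or without it.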

How the results depend on the processing

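Across all alternatives the 10 members kept their direction in Irp2-/- against WT and against Irp1-/-, and 0 of 10 passed in Irp1-/- against WT. The number called in Irp2-/- against WT was 8 to 10 with a replicate left out, 9 in DESeq2 and with the replicate block. Pstpip1 lost its call in DESeq2 (adjusted p = 0.135) and without Irp2-/- replicate 1, 2 or 3 or WT replicate 2, 3 or 4 (0.0523 to 0.113), Ncam1 without Irp2-/- replicate 2 (0.0889) or 3 (0.0582). Against Irp1-/-, 9 or 10 members passed, and Tspan3 lost its call in DESeq2 (0.054) and without Irp1-/- replicate 1 or 7 or Irp2-/- replicate 1 or 2 (0.0798 to 0.187). With at least 10 counts required in every sample, 1810046K07Rik was not tested against WT. Called genes within 10 Mb of Ireb2 numbered 9 to 13, and 9 to 11 with a replicate left out. With a replicate left out, the genes called over the table ranged from 55 to 216 in Irp1-/- against WT (55 without Irp1-/- replicate 1, 102 without 6, 84 without WT replicate 2, 106 without 4), from 118 (without Irp2-/- replicate 2) to 223 in Irp2-/- against WT, and from 414 (without Irp2-/- replicate 2; 471 without Irp1-/- replicate 1) to 763 in Irp2-/- against Irp1-/-. The log2 fold changes near 0 in Irp1-/- against WT changed sign with a replicate left out, from -0.013 to 0.055 for Ncam1, -0.056 to 0.415 for 1810046K07Rik, -0.076 to 0.045 for 4930563M21Rik, -0.028 to 0.035 for Gm7444, -0.037 to 0.023 for 1700017B05Rik and -0.055 to 0.018 for Ireb2. Same-numbered samples did not deviate together (correlation 0.009 to 0.108), so the numbers were not taken to pair the samples. With the replicate block 439 genes were called in Irp1-/- against WT, 132 in Irp2-/- against WT and 852 in Irp2-/- against Irp1-/-, Pstpip1 (0.137) and Cyp19a1 (0.0895) lost their calls against WT and Tspan3 (0.126) against Irp1-/-, Aco1 lost its call in Irp1-/- against WT (log2 fold change -0.28, adjusted p = 0.314), and in Irp1-/- against WT the log2 fold change became -0.093 for Ncam1, -0.265 for 1810046K07Rik, 0.093 for 4930563M21Rik, -0.068 for Gm7444, 0.002 for 1700017B05Rik, 0.096 for Cyp19a1 and -0.029 for 1700001J11Rik. In the replicate block, a sample whose number occurs in only 1 of the genotypes compared adds nothing to the estimated difference. The 2 block fits with Irp1-/- samples thus rest on replicates 1 and 2 of each genotype. That of Irp2-/- against WT rests on replicates 1, 2 and 3. The part of this in the changes above was not tested, nor was any other cause.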
